A study of Homo sapiens with 6 samples.

Results

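The elastic fibre genes described here are ELN, FBN1, FBN2, FBLN1, FBLN2, FBLN5, MFAP4, MFAP5, LTBP2 and EMILIN1. They were taken by symbol from a table of read counts per RefSeq transcript. All 10 were found, as 20 transcript rows, among 23527 genes with a symbol, and all 10 passed the filter on low counts. RNA with a poly(A) tail was sequenced from primary dermal fibroblasts, human cells of 1 line kept in culture, as 2 libraries for each of 3 groups. The untreated group expressed no MyoD construct. The WT-MyoD group carried a Tet-ON lentivirus for wild-type mouse MyoD, and the VP64-MyoD group carried the same vector for mouse MyoD with the VP64 activation domain fused to its N-terminus by a serine-glycine linker. In both, MyoD was co-expressed with dsRed-Express2 through a ribosomal skipping peptide. Puromycin removed cells without vector, and the confluent cultures were then kept in 3 µg/mL doxycycline for 10 days. Whether the untreated cells saw virus, puromycin or doxycycline is not given in the labels, so the effects of MyoD, vector, selection and drug cannot be told apart in comparisons with them.

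Elastic fibres give skin, lung and arteries their recoil. Tropoelastin, the product of ELN, is laid down on a scaffold of microfibrils built from fibrillins, and fibulins help to bring the parts together. Lysyl oxidases then crosslink the elastin. Microfibrils also hold latent TGF-beta. In skin the fibres are made largely by dermal fibroblasts, and MyoD is a transcription factor that can turn such cells towards skeletal muscle.

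Library totals lay between 40997586 and 53804224 counts. The mouse Myod1 transgene had 42900 and 41736 counts in the WT-MyoD libraries, 5372 and 5056 under VP64-MyoD, and 254 and 46 in untreated cells. The amount of transgene RNA and the activation domain therefore cannot be told apart between the MyoD forms. All 9 fibroblast markers were above 1 CPM (counts divided by the TMM-scaled library total, in the usual unit) in each group, with summed levels of 41800 to 44000 CPM in untreated, 27000 to 31000 under WT-MyoD and 28500 to 30900 under VP64-MyoD. COL1A1 and COL1A2 made up most of each sum. PI16 had means of 600, 59.65 and 4.98 CPM in untreated, WT-MyoD and VP64-MyoD. In that order DCN had 975, 1543 and 375, LUM 398, 582 and 477, and THY1 601, 695 and 565 CPM. PDGFRB had 1675, 778 and 789, and PDGFRA 662, 655 and 344 CPM. Of the collagens, COL1A1 had 18931, 9717 and 14227, COL1A2 13272, 9420.5 and 9263, and COL3A1 5795, 5551 and 3609 CPM. The 7 skeletal muscle markers summed to 15.5 to 15.8, 389 to 472 and 3730 to 4310 CPM in the same order. The 6 markers of smooth muscle, another producer of elastin, summed to 1160 to 1170, 564 to 578 and 1340 to 1360 CPM. ACTA2 (means of 555, 216 and 650 CPM) and TAGLN (461, 242 and 525 CPM) made up most of each sum. The others went different ways: CNN1 had means of 29.5, 1.89 and 5.47 CPM, LMOD1 73.3, 38.7 and 22.3, and SMTN 41.8, 70.2 and 144. MYH11 stayed at or under 2.53 CPM in each library. The summed levels of the endothelial (5 genes), keratinocyte (5), melanocyte (4) and adipocyte (4) markers stayed at or under 11.6 CPM in each library, with KRT1, TYR and FABP4 at 0 throughout. The 4 chondrocyte markers summed to 39.6 to 43.4, 45.6 to 51.7 and 21.2 to 22.0 CPM in untreated, WT-MyoD and VP64-MyoD. COL2A1 was under 1 CPM in each group. ACAN had means of 15.4, 42.4 and 2.40 CPM, SOX9 19.7, 5.10 and 14.5, and MATN3 6.33, 1.04 and 4.66. The 5 blood markers summed to 68.2 to 69.8, 176 to 180 and 45.4 to 47.0 CPM, with CD3E and HBB at 0. CD68 made up nearly all of that sum, with means of 66.8, 176 and 43.8 CPM.

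Most of the 10 elastic fibre genes were lower in both MyoD groups. The 10 were chosen with earlier results of these data known, so their counts beside all genes are a description and not a test. Other elastic fibre components, given below, were mixed. The 10 genes together made up 17010 ± 413 CPM in untreated libraries (SD, n = 2), 8851 ± 1120 CPM under WT-MyoD and 7282 ± 249 CPM under VP64-MyoD, or 52% and 42.8% of the untreated sum. FBN1 supplied 46.5%, 52.3% and 54.5% of these sums. In bulk RNA, fewer cells of a type and less RNA per cell cannot be told apart.

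With WT-MyoD, 8 of the 10 genes were lower and 2 higher than in untreated cells (edgeR quasi-likelihood test, adjusted p under 0.05). Of all 15771 genes tested, 22.2% were called lower and 25.7% higher in that comparison. The median log2 fold change was -1.16 over the elastic fibre genes and 0 over all genes. With VP64-MyoD all 10 were lower, against 30% of all genes called lower and 33% called higher, with medians of -1.40 and 0.03. Differences of at least 1 on the log2 scale were called downward for 6 members under WT-MyoD and for 6 under VP64-MyoD, where 4% and 6.94% of all genes reached that size. Scaled by library totals alone, the numbers of all genes called higher and lower were 5796 and 1876 under WT-MyoD, in place of 4054 and 3495. For VP64-MyoD they were 6781 and 3125, in place of 5205 and 4738. That scaling moved the median of all genes to 0.17 and 0.22. It left all 10 directions in both of these comparisons as they were. The values of MFAP5 and EMILIN1 under WT-MyoD became 0.33 and 0.43, from 0.16 and 0.26, and that of EMILIN1 under VP64-MyoD became -0.24, from -0.43. The call for MFAP5 under VP64-MyoD ended under it (log2 fold change -0.03, edgeR adjusted p = 0.740).

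**Figure D1:**
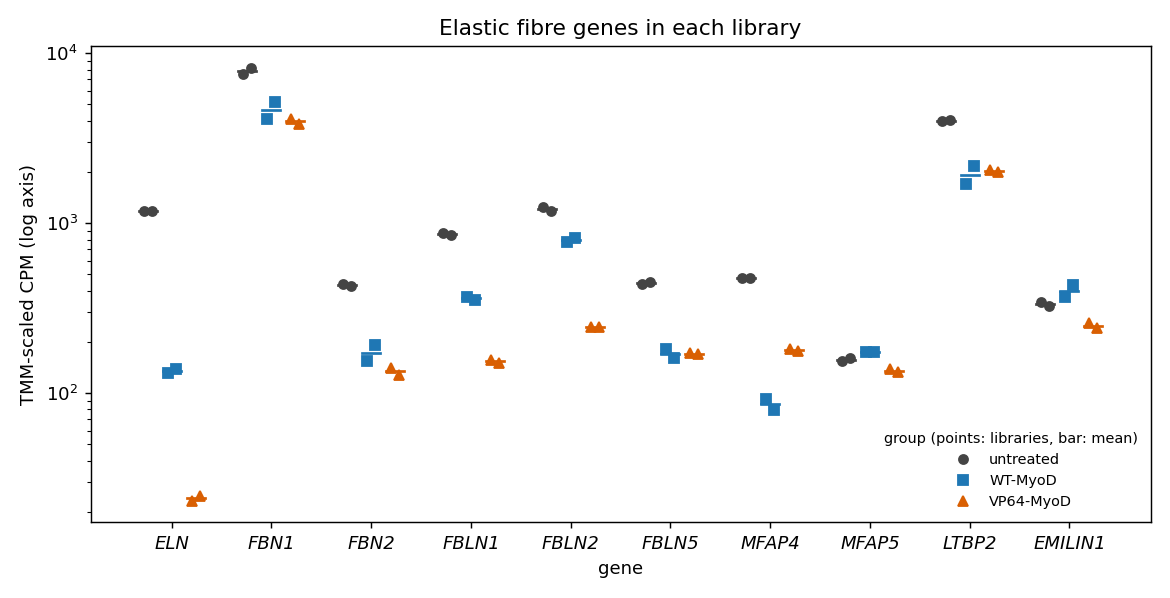
TMM-scaled CPM (log axis) of each elastic fibre gene in the 6 libraries, with points for libraries and bars for group means. ELN spans the widest range, from 1181 CPM in an untreated library to 23.3 CPM in a VP64-MyoD library, while MFAP5 stays between 133 and 175 CPM.

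ELN encodes the elastic core itself. Its level was 1178 and 1181 CPM in the untreated libraries, 131 and 138 CPM under WT-MyoD, and 23.3 and 24.7 CPM under VP64-MyoD. The groups lay far apart and the replicates of each nearly coincided. ELN was 8.75-fold lower under WT-MyoD (log2 fold change -3.13, SE 0.07, adjusted p = 9.2e-15 by edgeR) and 49.2-fold lower under VP64-MyoD (log2 fold change -5.62, SE 0.08, adjusted p = 5.8e-17 by edgeR). Between the forms it was 5.62-fold lower under VP64-MyoD (log2 fold change -2.49, SE 0.07, adjusted p = 3.2e-13 by edgeR). Among all 15771 genes tested, the fold change of ELN was the 58th lowest under WT-MyoD, the 14th lowest under VP64-MyoD and the 215th lowest between the forms. Among 8827 genes with at least 10 CPM in untreated cells, where ELN was high, it was the 18th, the 6th and the 49th lowest. Its 5 transcript rows each held between 17.9% and 22.0% of the gene's counts in every library. How reads common to several transcripts were counted is not given in the sources used here, so these shares were not read as isoform levels. ELN shares 165 exon bases with ELN-AS1 on the opposite strand, and the libraries do not mark strand.

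The fibrillins form the microfibril backbone. FBN1, the main fibrillin of adult tissue, had 7581 and 8223 CPM in untreated, 4113 and 5140 CPM under WT-MyoD, and 4102 and 3841 CPM under VP64-MyoD. Both MyoD groups lay below the untreated libraries, and the lower WT-MyoD library (4113 CPM) nearly met the higher VP64-MyoD library (4102 CPM). The log2 fold change was -0.77 under WT-MyoD (SE 0.10, adjusted p = 6.7e-06 by edgeR) and -0.99 under VP64-MyoD (SE 0.10, adjusted p = 3.0e-07 by edgeR). The difference between the forms did not pass (log2 fold change -0.22, SE 0.10, adjusted p = 0.0638 by edgeR). That call was gained with DESeq2 (adjusted p = 0.0221), limma-voom (0.0452), library totals (0.0164), no filter on low counts (6.7e-04) and without WT-MyoD replicate 1 (log2 fold change -0.37, edgeR adjusted p = 1.8e-05), while without WT-MyoD replicate 2 the value was -0.06.

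FBN2, the fibrillin best known from development, had 440 and 425 CPM in untreated cells. It stood at 154 and 191 CPM under WT-MyoD and at 141 and 127 CPM under VP64-MyoD. No 2 groups overlapped. Its log2 fold change was -1.33 under WT-MyoD (SE 0.09, adjusted p = 4.0e-09 by edgeR) and -1.69 under VP64-MyoD (SE 0.09, adjusted p = 1.9e-10 by edgeR). Between the forms FBN2 was lower under VP64-MyoD by a log2 fold change of -0.37 (SE 0.09, adjusted p = 0.0023 by edgeR). Without WT-MyoD replicate 1 that difference was -0.52, and without WT-MyoD replicate 2 it was -0.22.

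MyoD binds E-boxes, sites of the form CANNTG. The sequences before the starts of members are given as a description, and a role of E-boxes in their levels was not tested. RefSeq windows (GRCh38.p14) were found for 6 of the 10 genes, as 8 windows of 250 bases upstream of a start. ELN, MFAP4, MFAP5 and EMILIN1 were not matched. Searched on both strands (CANNTG is its own reverse complement), 3 windows held CANNTG, those of FBN1, FBN2 and LTBP2, with 1 match each. Of 35116 such windows of all genes, 61.8% held CANNTG. The 4 windows below have CANNTG in capitals, and the rest is in lower case, 5′ to 3′ on the strand of the gene. FBN1 (chr15:48644971-48645220, minus strand) holds CAGCTG 132 bases before the start.
FBN1: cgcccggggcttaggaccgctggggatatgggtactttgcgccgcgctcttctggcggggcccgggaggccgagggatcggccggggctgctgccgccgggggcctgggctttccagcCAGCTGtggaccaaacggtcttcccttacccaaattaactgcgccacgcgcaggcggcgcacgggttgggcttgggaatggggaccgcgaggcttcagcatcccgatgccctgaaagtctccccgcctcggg
FBN2 (chr5:128538246-128538495, minus strand) holds CACGTG 97 bases before the start.
FBN2: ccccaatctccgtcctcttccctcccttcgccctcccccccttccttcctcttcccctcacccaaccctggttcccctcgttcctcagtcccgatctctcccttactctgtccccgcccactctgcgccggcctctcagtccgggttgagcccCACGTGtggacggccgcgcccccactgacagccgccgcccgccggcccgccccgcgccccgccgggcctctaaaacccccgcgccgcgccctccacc
LTBP2 (chr14:74612238-74612487, minus strand) holds CATCTG 217 bases before the start.
LTBP2: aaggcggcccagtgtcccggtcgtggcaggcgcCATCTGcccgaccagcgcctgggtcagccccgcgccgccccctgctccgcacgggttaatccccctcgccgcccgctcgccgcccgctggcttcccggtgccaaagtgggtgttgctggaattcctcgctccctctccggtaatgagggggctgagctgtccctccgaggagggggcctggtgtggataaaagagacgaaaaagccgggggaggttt
FBLN1 (chr22:45502633-45502882, plus strand) has no match, like the windows of FBLN2 and FBLN5, and is shown as an example of these.
FBLN1: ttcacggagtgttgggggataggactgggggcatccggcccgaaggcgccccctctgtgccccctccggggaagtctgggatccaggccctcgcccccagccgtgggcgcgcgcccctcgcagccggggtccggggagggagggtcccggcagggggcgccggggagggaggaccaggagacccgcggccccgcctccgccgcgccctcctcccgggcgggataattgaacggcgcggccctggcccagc
The GC content of the 8 windows ran from 48.8% to 80.4%, against a median of 58.0% over all windows. A match is a string of letters here and not a measured binding site.

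The fibulins link tropoelastin and basement membrane proteins to microfibrils. FBLN1 had 869 and 853 CPM in untreated, 368 and 353 CPM under WT-MyoD, and 157 and 151 CPM under VP64-MyoD. It stepped down from group to group with no overlap. The log2 fold change was -1.26 under WT-MyoD (SE 0.06, adjusted p = 1.4e-10 by edgeR), -2.48 under VP64-MyoD (SE 0.07, adjusted p = 4.1e-14 by edgeR) and -1.23 between the forms (SE 0.06, adjusted p = 2.9e-10 by edgeR). The gene makes transcript variants A to D with different 3′ ends. The row of variant D held 37.2% to 39.0% of the FBLN1 counts in the 6 libraries, variant C 21.8% to 23.9%, and variants A and B 19.0% to 20.7% each. The excess of variant D over the mean of A and B was 3.95 to 8.79 times that of variant C, and 8.49 and 3.95 times in the VP64-MyoD libraries, so it varied widely within that group. No change in the balance of variants was read from these rows. The gene total was 5.59-fold lower under VP64-MyoD.

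FBLN2 was set apart mainly by VP64-MyoD. It had 1249 and 1179 CPM in untreated, 775 and 822 CPM under WT-MyoD, and 244 and 246 CPM under VP64-MyoD. The fall was 1.52-fold under WT-MyoD (log2 fold change -0.61, SE 0.07, adjusted p = 1.5e-06 by edgeR) and 4.96-fold under VP64-MyoD (log2 fold change -2.31, SE 0.07, adjusted p = 1.8e-13 by edgeR). The forms differed by -1.70 on the log2 scale (SE 0.07, adjusted p = 1.3e-11 by edgeR).

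FBLN5, which tethers elastin to cells and microfibrils, fell in both groups. Its level was 439 and 450 CPM in untreated, 181 and 161 CPM under WT-MyoD, and 171 and 169 CPM under VP64-MyoD. The MyoD groups overlapped each other and both lay under the untreated libraries. The log2 fold changes were -1.38 (SE 0.07, adjusted p = 1.0e-10 by edgeR) and -1.39 (SE 0.07, adjusted p = 7.8e-11 by edgeR). Between the forms the fitted difference was -0.01 (SE 0.07, adjusted p = 0.954 by edgeR), which does not show that the levels are equal. Its sign turned under 4 of the alternatives, with values up to 0.08.

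**Figure D2:**
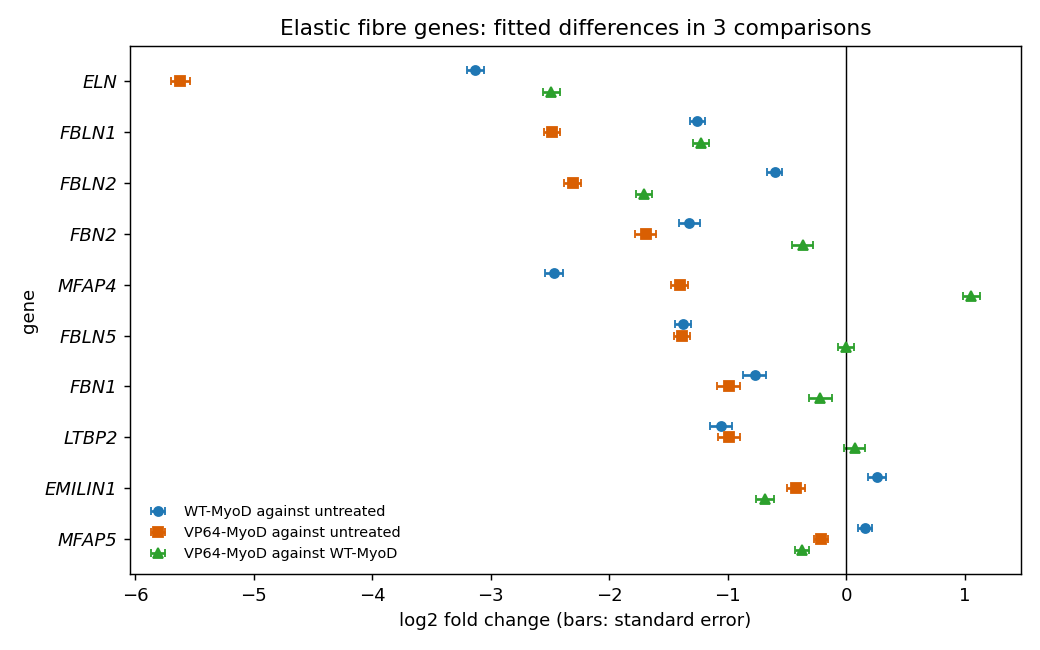
Fitted log2 fold changes of the 10 genes in the 3 comparisons, with standard errors as bars and 0 marked by a line. ELN lies furthest to the left in all 3 comparisons, and MFAP4 is the gene with the value furthest to the right of 0 between the MyoD forms, at 1.05.

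The microfibril-associated proteins moved apart from one another. MFAP4, which binds tropoelastin and fibrillin and promotes fibre assembly, had 473 and 472 CPM in untreated, 92.3 and 79.0 CPM under WT-MyoD, and 180 and 176 CPM under VP64-MyoD. It was the only one of the 10 called higher under VP64-MyoD than under WT-MyoD, by a log2 fold change of 1.05 (SE 0.07, adjusted p = 8.1e-09 by edgeR). In that comparison 28.3% of all genes were called higher and 28.2% lower, and the libraries of 78.1% did not overlap. Of the members, 6 were lower and 3 did not pass. ELN, FBLN1 and FBLN2 were lower by at least 1 on the log2 scale, 3 of 10, where 6.77% of all genes were. MFAP4 was lower than untreated in both groups, by log2 fold changes of -2.46 under WT-MyoD (SE 0.08, adjusted p = 3.9e-13 by edgeR) and -1.41 under VP64-MyoD (SE 0.07, adjusted p = 1.4e-10 by edgeR). Between the forms, LTBP2 was also called higher when WT-MyoD replicate 2 was left out. MFAP4 shares 103 exon bases with MAPK7 on the opposite strand.

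MFAP5, a glycoprotein that decorates fibrillin, was nearly level. Its libraries had 154 and 160 CPM in untreated, 175 and 174 CPM under WT-MyoD, and 137 and 133 CPM under VP64-MyoD. The groups did not overlap, as was so for 71.4% of all genes between WT-MyoD and untreated and 83.2% between VP64-MyoD and untreated. The log2 fold change was 0.16 under WT-MyoD (SE 0.06, adjusted p = 0.0425 by edgeR) and -0.21 under VP64-MyoD (SE 0.06, adjusted p = 0.00565 by edgeR). The call under WT-MyoD ended without untreated replicate 1 (edgeR adjusted p = 0.262), without untreated replicate 2 (0.109) and without either VP64-MyoD library (0.0959 and 0.0974). The call under VP64-MyoD ended without untreated replicate 2 (0.0660) and without VP64-MyoD replicate 2 (0.0823). The direct difference between the forms was -0.37 (SE 0.06, adjusted p = 8.1e-05 by edgeR) and passed in all 16 alternatives, with adjusted p up to 0.0046.

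LTBP2 binds fibrillin and is known for its part in microfibril assembly, and unlike its relatives it does not bind latent TGF-beta. It had 3991 and 4029 CPM in untreated, 1703 and 2152 CPM under WT-MyoD, and 2045 and 2000 CPM under VP64-MyoD. The VP64-MyoD libraries lay between those of WT-MyoD. The log2 fold changes were -1.06 under WT-MyoD (SE 0.09, adjusted p = 1.1e-07 by edgeR) and -0.99 under VP64-MyoD (SE 0.09, adjusted p = 1.9e-07 by edgeR). The difference between the forms was 0.07 (SE 0.09, adjusted p = 0.544 by edgeR); it was 0.23 without WT-MyoD replicate 2 (edgeR adjusted p = 0.0019) and -0.09 without WT-MyoD replicate 1 (0.190). LTBP2 shares 207 exon bases with AC013451.1 on the opposite strand.

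EMILIN1, which sits between elastin and microfibrils and restrains TGF-beta maturation, went in opposite directions under the MyoD forms. It had 341 and 326 CPM in untreated, 369 and 431 CPM under WT-MyoD, and 257 and 240 CPM under VP64-MyoD, with no overlap. The log2 fold change was 0.26 under WT-MyoD (SE 0.08, adjusted p = 0.0097 by edgeR), a call that ended without untreated replicate 2 (log2 fold change 0.23, edgeR adjusted p = 0.108). It was -0.43 under VP64-MyoD (SE 0.08, adjusted p = 1.6e-04 by edgeR), and the direct difference was -0.69 (SE 0.08, adjusted p = 1.7e-06 by edgeR). MFAP5 and EMILIN1 thus shared the set of calls higher, lower and lower in the 3 comparisons, which 3.15% of all genes had. ELN, FBN2, FBLN1 and FBLN2 were called lower in all 3, as were 5.64% of all genes.

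Levels of different genes were compared per kilobase of the longest matched GENCODE transcript. In untreated cells FBN1 came first at 672 ± 39 CPM per kilobase (SD, n = 2), then LTBP2 at 468 ± 3.2, ELN at 312 ± 0.49, FBLN1 at 297 ± 4.0, FBLN2 at 281 ± 11, MFAP4 at 245 ± 0.21 and FBLN5 at 209 ± 3.7. EMILIN1 (84.6 ± 2.7), MFAP5 (55.1 ± 1.5) and FBN2 (40.4 ± 0.96) were lowest. ELN fell from the third place to the ninth under WT-MyoD, at 35.6 ± 1.3 CPM per kilobase, and to the last under VP64-MyoD, at 6.34 ± 0.27. MFAP4 took the eighth place under WT-MyoD (44.3 ± 4.9) and the third under VP64-MyoD (92.2 ± 1.6). FBN1 and LTBP2 came before all others in each group. No neighbours in these orders overlapped in their libraries, but the order of close ones depends on the transcript length used. The places of ELN, FBLN1, FBLN2 and MFAP4 also depend on how reads common to several transcripts were counted, which is not given. These genes are sums of 5, 4, 3 and 2 transcript rows, and the other members have 1 row each. Had such reads been counted in every row, these levels, such as the third place of ELN, would be too high.

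**Figure D3:**
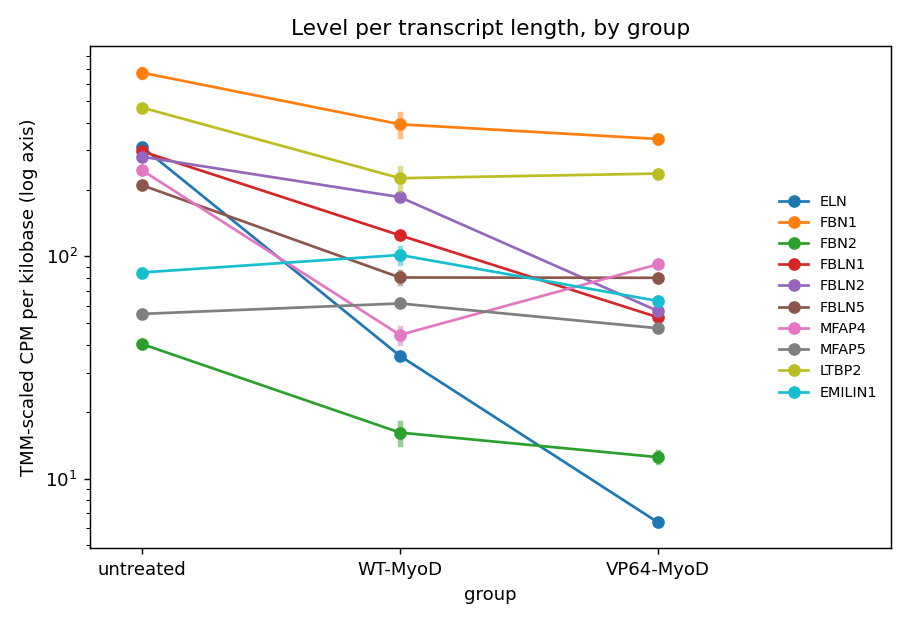
Mean TMM-scaled CPM per kilobase of transcript (log axis) in the 3 groups, with thick bars for the range of the 2 libraries and lines that only join the groups of a gene. ELN drops from 312 to 6.34 CPM per kilobase and ends below all other members, with only FBN1 and LTBP2 above it at the start, while MFAP4 has its lowest level under WT-MyoD.

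The WT-MyoD libraries differed from each other with transcript length, and the long members carried that difference. FBN1, FBN2 and LTBP2, with transcripts of 11.756, 10.724 and 8.567 kilobases, were 1.25, 1.24 and 1.26 times higher in replicate 2 than in replicate 1. MFAP4 and FBLN5, with 1.932 and 2.123 kilobases, stood at 0.856 and 0.890 times. Across the 10 genes Spearman's rho of this ratio with length was 0.939 under WT-MyoD, -0.0788 in untreated and -0.358 under VP64-MyoD. Across 7834 genes with at least 10 CPM in every library and a known length, the values were 0.592, 0.217 and 0.0530. These genes share libraries and are not independent replicates. In WT-MyoD the median ratio rose from 0.920 for 1268 genes under 2 kilobases to 1.15 for 772 genes of 8 kilobases or more. The ribosomal RNA row held 1.26% of counts in replicate 1 and 1.80% in replicate 2, against 1.70% and 0.997% under VP64-MyoD and 0.663% and 0.803% in untreated. The part of RNA quality in the long genes' values was not tested. The falls under WT-MyoD held with either library left out, at -0.62 and -0.93 for FBN1, -1.18 and -1.48 for FBN2, and -0.90 and -1.22 for LTBP2 without replicate 1 and without replicate 2. For EMILIN1, the rise under WT-MyoD was 0.37 without replicate 1 and 0.16 without replicate 2.

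**Figure D4:**
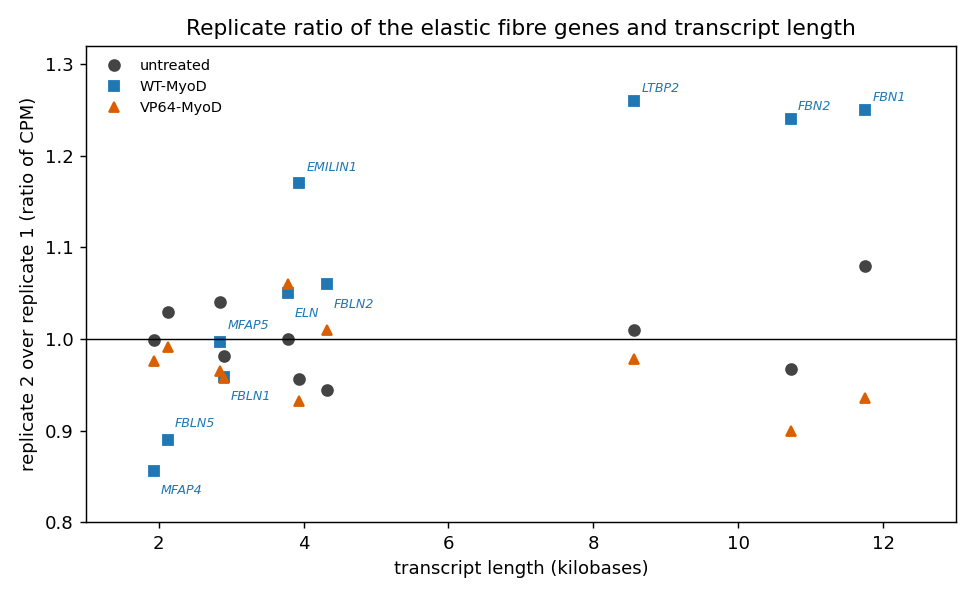
Ratio of CPM in replicate 2 to replicate 1 of each group against transcript length in kilobases, with 1 point per gene and group and names at the WT-MyoD points. The WT-MyoD ratios climb from 0.856 for MFAP4 to 1.26 for LTBP2, while the other groups lie between 0.900 and 1.08.

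The genes with the profile most like ELN over the 6 libraries were DHRS3, DPT, KCNK15, PI16 and PALM, by Euclidean distance of log2 CPM deviations from the untreated mean among genes with at least 10 CPM in untreated cells. By Pearson correlation these genes had ranks 11, 52, 495, 30 and 138, so the choice depends on the measure. DHRS3, a retinaldehyde reductase, was nearest at a distance of 0.377, with 84.9 and 82.7 CPM in untreated, 9.50 and 9.58 CPM under WT-MyoD, and 1.25 and 1.83 CPM under VP64-MyoD. DPT, a dermal matrix protein, came next at 1.08, with log2 fold changes of -3.13 under WT-MyoD and -4.87 under VP64-MyoD. The nearest member was FBLN1, at 5.17, with rank 67.

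Other microfibril and elastic fibre components were mixed. Of 21 listed genes 19 were tested: 5 were higher and 11 lower under WT-MyoD, 2 higher and 11 lower under VP64-MyoD, and 7 higher and 11 lower under VP64-MyoD than under WT-MyoD. Their medians were -0.32, -0.47 and -0.55, against 0, 0.03 and 0.02 over all genes. All genes tested were called higher and lower in 25.7% and 22.2%, 33% and 30%, and 28.3% and 28.2% of cases. By library totals 4 of the 19 were higher under VP64-MyoD. EFEMP1, a fibulin-family gene, had 1369 and 1463 CPM in untreated, 325 and 312 CPM under WT-MyoD, and 177 and 179 CPM under VP64-MyoD. LTBP3, a carrier of latent TGF-beta, fell by 0.78 and 2.41 on the log2 scale under WT-MyoD and VP64-MyoD, and the hemicentin HMCN1 fell by 2.22 and 1.24. FBLN7, a fibulin of low level, was higher under WT-MyoD, at 7.66 and 8.95 CPM against 0.76 and 0.95 in untreated and 0.86 and 0.61 under VP64-MyoD.

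Among matrix proteins that bind these fibres, DCN (decorin) was higher under WT-MyoD, by a log2 fold change of 0.66, and fell by 1.38 on the log2 scale under VP64-MyoD. BGN (biglycan) fell by 1.15 on the log2 scale under WT-MyoD; under VP64-MyoD its value of -0.14 did not pass (edgeR adjusted p = 0.0796). VCAN (versican) fell by 0.49 on the log2 scale under WT-MyoD, with a value of 0.01 for VP64-MyoD that did not pass (edgeR adjusted p = 0.928). TNXB (tenascin-X) went from 510 and 476 CPM to 7.82 and 8.70 CPM under VP64-MyoD; under WT-MyoD it had 459 and 706 CPM and did not pass (edgeR adjusted p = 0.153). TNXB has a near-identical partial copy in the genome, so its counts are uncertain. MGP, an inhibitor of calcification, had no count in either VP64-MyoD library and 2.53 and 1.64 CPM in untreated, at least 34.3-fold lower when the group is set to 3 read pairs, the limit that a count of 0 allows. MMRN2, an EMILIN-family gene of endothelium, was higher in both groups, with 6.75 and 5.98 CPM under WT-MyoD and 4.90 and 4.24 CPM under VP64-MyoD against 0.96 and 0.77 CPM.

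The crosslinking enzymes and chaperones went both ways. Of 12 genes, 2 were higher and 6 lower under WT-MyoD, 2 higher and 7 lower under VP64-MyoD, and 4 higher and 3 lower between the forms, with medians of -0.15, -0.21 and 0.04. The number higher under WT-MyoD was 1 without untreated replicate 1 and 4 by library totals. Under VP64-MyoD library totals gave 4 higher and 4 lower, and a fit of only the compared groups gave 4 higher. Of all genes tested, 25.7% were higher and 22.2% lower under WT-MyoD, and 33% and 30% under VP64-MyoD. Between the forms these shares were 28.3% and 28.2%, and the medians of all genes were 0, 0.03 and 0.02. LOX, the main lysyl oxidase, had 1638 and 1724 CPM in untreated, 960 and 981 CPM under WT-MyoD, and 1313 and 1274 CPM under VP64-MyoD. LOXL2, a relative of LOX, fell by 1.35 and 0.30 on the log2 scale and was higher under VP64-MyoD than under WT-MyoD by 1.05. LOXL4, another relative, fell by 0.75 under VP64-MyoD; under WT-MyoD its value of 0.10 did not pass (edgeR adjusted p = 0.179). FKBP10, a chaperone of collagen and tropoelastin, fell by 0.19 and 0.16 (edgeR adjusted p = 0.0223 and 0.0379). The lysyl hydroxylase PLOD1 fell by 0.30 and 0.26 (edgeR adjusted p = 0.0012 and 0.0028). Library totals moved the median of all genes to 0.17 and 0.22, a shift about as large as the FKBP10 values. The falls of PLOD1 and LOXL2 under VP64-MyoD were the next smallest of the 7 called there, and not far above that shift.

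Several ADAMTS and ADAMTSL proteins bind fibrillin and tune microfibril assembly. Of 11 listed genes 9 were tested, of which 4 were higher and 3 lower under WT-MyoD, 3 higher and 5 lower under VP64-MyoD, and 2 higher and 5 lower between the forms. The medians were 0.00, -0.65 and -0.32, against 0, 0.03 and 0.02 over all genes. Shares of all genes called higher and lower were 25.7% and 22.2%, 33% and 30%, and 28.3% and 28.2% in these comparisons. ADAMTS10 fell in both groups, from 33.7 and 35.9 CPM to 7.91 and 7.93 CPM under WT-MyoD and 9.54 and 8.66 CPM under VP64-MyoD. ADAMTSL4 had 76.9 and 76.4 CPM in untreated, 137 and 176 CPM under WT-MyoD, and 39.7 and 37.8 CPM under VP64-MyoD. ADAMTSL1 was likewise higher under WT-MyoD, by a log2 fold change of 0.47, and lower under VP64-MyoD, by -0.91. ADAMTS6 had the opposite order, at -1.06 and 0.79, and THSD4 was lower in both, at -0.48 and -0.80. ADAMTSL3 rose from 0.24 and 0.41 CPM to 8.19 and 8.76 CPM under WT-MyoD and 3.35 and 3.09 CPM under VP64-MyoD. ADAMTSL2 rose to 3.43 and 4.04 CPM and to 14.5 and 14.6 CPM, but a partial genomic copy makes its counts uncertain.

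Of 19 elastin-degrading proteases and inhibitors 11 were tested, with 4 higher and 4 lower under WT-MyoD, 2 higher and 7 lower under VP64-MyoD, and 1 higher and 6 lower between the forms. The medians were 0.10, -0.34 and -0.48, against 0, 0.03 and 0.02 over all genes. Shares of all genes called higher and lower were 25.7% and 22.2%, 33% and 30%, and 28.3% and 28.2% in turn. By library totals 2 of the 11 were lower under WT-MyoD. The number higher under WT-MyoD was 2 without either untreated library or either VP64-MyoD library, and the number higher under VP64-MyoD was 1 without either untreated library or VP64-MyoD replicate 2. Between the forms it was 2 without WT-MyoD replicate 2 and 0 without VP64-MyoD replicate 1. MMP12, MMP9, MMP7, ELANE and PRTN3, the elastases of inflammatory cells and their relatives, were at or under 0.146 CPM in each library and were not tested. MMP2, a gelatinase that can cleave elastin, fell by 0.75 and 1.47 on the log2 scale, and MMP14, which activates it, fell by 0.26 and 0.41. The inhibitor TIMP1 fell by 0.55 and 0.34 and TIMP3 fell by 0.29 and 0.19 (edgeR adjusted p = 0.0037 and 0.0358 for TIMP3). The TIMP3 value under VP64-MyoD was smaller than the shift of 0.22 that library totals gave the median of all genes. Under WT-MyoD that shift was 0.17, and the MMP14 and TIMP3 values were the smallest of the 4 falls called there. TIMP2 fell by 0.78 under VP64-MyoD; under WT-MyoD its value of -0.08 did not pass (edgeR adjusted p = 0.416).

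Of 16 TGF-beta ligands, activators and receptors, 8 were higher and 6 lower under WT-MyoD, 5 higher and 9 lower under VP64-MyoD, and 7 higher and 7 lower between the forms, with medians of 0.06, -0.29 and 0.16. In the same comparisons 25.7% and 22.2%, 33% and 30%, and 28.3% and 28.2% of all genes were higher and lower. The medians of all genes were 0, 0.03 and 0.02. The ligand TGFB2 rose from 3.41 and 4.04 CPM to 10.9 and 11.1 CPM under WT-MyoD and 49.4 and 50.5 CPM under VP64-MyoD. The co-receptor TGFBR3 had 77.8 and 79.7 CPM in untreated, 123 and 130 CPM under WT-MyoD, and 14.1 and 15.8 CPM under VP64-MyoD. THBS1, an activator of latent TGF-beta, fell by 0.85 and 0.69 on the log2 scale. Among the integrin subunits, ITGAV fell by 0.89 and 0.22 and ITGB5 fell by 0.33 and 0.59. ITGB1 fell by 0.21 under WT-MyoD (edgeR adjusted p = 0.0197), and ITGA5 was higher under VP64-MyoD by 0.25. The ITGB1 value and that of ITGAV under VP64-MyoD were close in size to the shifts of 0.17 and 0.22 from library totals. ITGB6 had 3.60 and 3.31 CPM under WT-MyoD and 23.8 and 20.2 CPM under VP64-MyoD, against 1 read pair in the untreated group. ITGA8 stayed at or under 1.34 CPM in each library and was called higher under WT-MyoD and lower under VP64-MyoD.

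**Figure D5:**
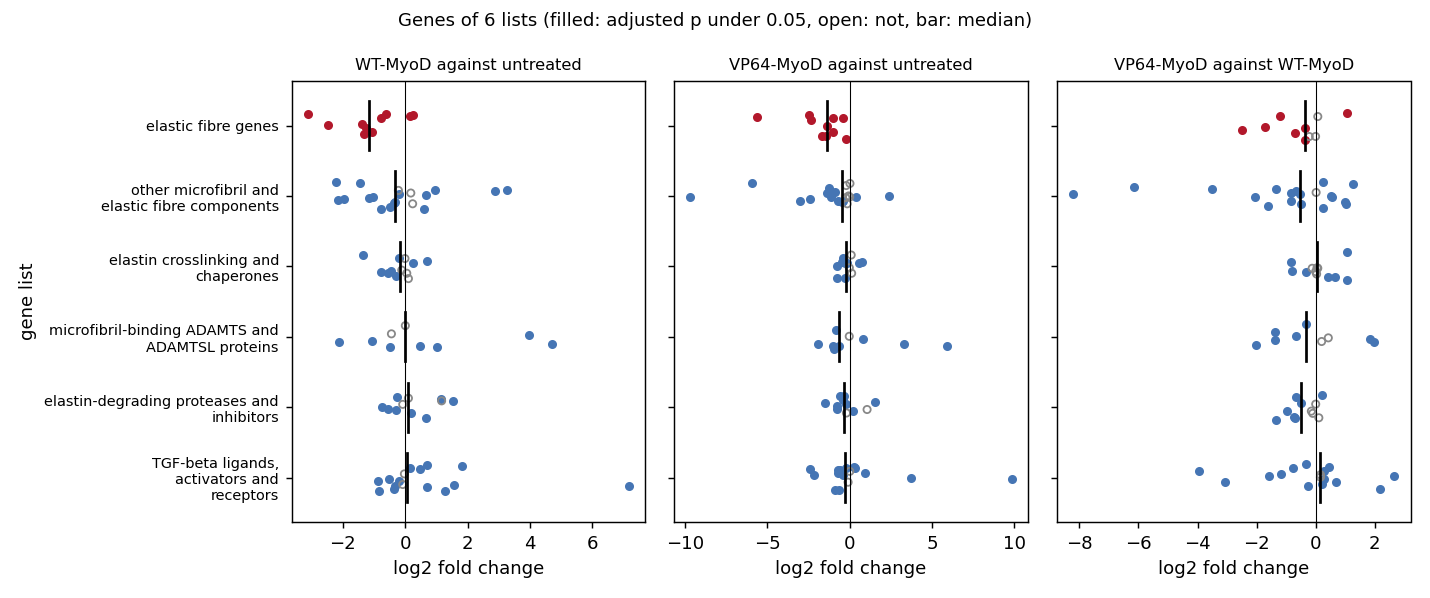
Log2 fold changes of the tested genes in 6 lists for the 3 comparisons, with filled points for an edgeR adjusted p under 0.05, open points for the rest and black bars for list medians; the horizontal scales differ. The medians of the elastic fibre genes are -1.16, -1.40 and -0.37. The MGP points in both comparisons of VP64-MyoD rest on a group with 0 read pairs. The ITGB6 points in both comparisons with untreated rest on a group with 1 read pair.

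The authors' deposited table, whose adjusted p-values do not exceed 9.95e-06, lists 18 of the 20 transcript rows. It does not list MFAP5 and EMILIN1, the only members called higher under WT-MyoD here. In the authors' deposited table the 5 ELN rows have log2 fold changes from -3.15 to -3.09 under WT-MyoD and from -5.71 to -5.51 under VP64-MyoD. The authors' deposited table gives MFAP4 -2.46 and -2.47 under WT-MyoD and -1.38 and -1.43 under VP64-MyoD.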

How the data were processed

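Polyadenylated RNA of 6 libraries in 3 groups was sequenced after transposase tagmentation, which leaves strand unmarked. Per the submitters' processing notes, CASAVA, Bowtie 0.12.9, DESeq 1.10.1 and hg19 were used. The deposited table holds raw read counts for 40710 RefSeq transcripts. No value in it is odd, so each pair seems to count as 2 reads. The authors' deposited comparison table gives a signal per group (the mean of normalized counts), fold changes, log2 fold changes and p-values, per the file headers, and entered no test.

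Rows were matched by accession to RefSeq symbols (39320 rows), or through GENCODE release 29 (521), and summed per gene. The 868 rows without a symbol stayed as separate features. Levels are TMM-scaled CPM. The 6 libraries entered 1 edgeR 4.0.16 quasi-likelihood fit (R 4.3.3, filterByExpr with a minimum count of 10 and a minimum total of 15, two-sided, Benjamini-Hochberg over 15771 genes and the transgene, threshold 0.05). The script was tested on simulated data. Standard errors were derived from the log2 fold change and its F statistic. Floors cover counting error only. Replicates differed by more than sampling noise (chi-square per degree of freedom 3.43 to 13.5). The series calls them biological duplicates, but all came from 1 line, and a p-value here reflects only how such cultures vary.

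Members and lists were chosen with earlier results of these data known. All members are named. Of other lists, the 5 genes of highest mean level and those called at an absolute log2 fold change of at least 2, with at least 1 CPM in the higher group, are named. Alternatives were RLE or total-count scaling, DESeq2 1.42.0, limma 3.58.1 voom, other filters, halved counts, library sizes without transgene and ribosomal RNA, fits of 2 groups, a replicate block and leaving out each library.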

Additional observations from a re-analysis of the deposited data

How the results depend on the processing

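Of 480 values (30 log2 fold changes of elastic fibre genes under 16 alternatives), 459 kept direction and side of the threshold, 10 lost a call, 6 gained one and 5 turned in sign. Those that turned were FBLN5 between the forms, at 0.00649 by library totals, 0.00194 with at least 1 CPM in 2 libraries, and -0.101 to 0.0812 when a library was left out (positive without WT-MyoD replicate 1 and without VP64-MyoD replicate 2), and LTBP2 between the forms, at -0.0906 to 0.234 when a library was left out (negative without WT-MyoD replicate 1). None of these 5 values passed. Lost calls were all of MFAP5 or EMILIN1, and that of MFAP5 under WT-MyoD was also lost with no filter (edgeR adjusted p = 0.0596) and with only the compared groups (0.0831). The number of elastic fibre genes higher under WT-MyoD was 1 with no filter on low counts and 1 with only the compared groups in the fit, in place of 2, and 0 to 2 when a library was left out. The number higher under VP64-MyoD than under WT-MyoD was 1 to 2 when a library was left out. The 8 lower under WT-MyoD stayed 8 throughout, and the number lower under VP64-MyoD was 9 or 10. By library totals, 1876 of all genes were lower under WT-MyoD and 3125 under VP64-MyoD. By Pearson correlation, 0 of the 5 genes nearest to ELN remained among the nearest 5. The mean share of the FBLN1 variant D row did not depend on a minimum of 10 counts, since each row exceeded it.

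Same-numbered libraries did not deviate together (correlations 0.0314, 0.0223 and 0.00708), so the replicate numbers were not taken as pairs. With a replicate block, 4028 genes were higher and 3496 lower under WT-MyoD, and the elastic fibre counts stayed at 2 and 8. Depth limits no member, the lowest having 23.3 CPM.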
